A study of Mus musculus with 12 samples.

Results

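Neuropeptide precursors are the genes whose protein products are cut into peptide signals or are stored with them in dense-core vesicles. A set of 39 such mouse genes was followed in the cerebellum of wild-type (WT) and EED-/- mice. The genes were found by symbol, and the set was chosen with earlier results of these data known. All 39 were among the 55385 genes with estimated counts, and 29 of them passed the filter on low counts, as did 18091 genes in all. Both genotypes were C57BL/6 mice at postnatal day 14, with 3 RNA-seq libraries of whole cerebellum per genotype and no further treatment in the labels. EED-/- denotes a conditional knockout of Eed, whose product belongs to the core of PRC2, the Polycomb complex that writes the silencing mark H3K27me3. The labels name neither the Cre driver nor the deleted part of Eed. Nothing in them tells whether each library is a separate animal, and p-values cover only the spread among libraries. A further 6 ChIP-seq samples were not analysed here.

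A neuropeptide is made as a long precursor in the endoplasmic reticulum, sorted into dense-core vesicles, cut at pairs of basic residues by prohormone convertases, trimmed by carboxypeptidase E and often amidated at its end. Release needs stronger activity than that of small transmitter vesicles, and the peptide then acts at G protein-coupled receptors on cells that need not lie next to the site of release. In the cerebellum, granins are abundant, enkephalin is known from Golgi cells, corticotropin-releasing hormone from climbing fibres, and several other peptides from afferent fibres, interneurons and the cerebellar nuclei.

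Each library held 19621814 to 20366173 estimated counts, so that 18.6 to 21.3 counts made 1 CPM, a count scaled to the same fixed total in every library. The 39 precursors together took 0.154 to 0.172% of all counts of a library. Mitochondrial transcripts took 3.21 to 6.37% of the counts in WT and 6.45 to 8.04% in EED-/- libraries. Expression is given as CPM after TMM scaling, a correction for the composition of the libraries. A gene was called where edgeR's quasi-likelihood test gave a Benjamini-Hochberg adjusted p, over the 18091 tested genes, under 0.05. Log2 fold changes are EED-/- over WT, with their standard errors (SE). Eed itself (chromosome 7, 89954654 to 89980983, GRCm38) was at 20.1, 26.6 and 23.5 CPM in WT replicates 1 to 3 and at 11.6, 9.31 and 11.3 CPM in EED-/- replicates 1 to 3. It was lower in every EED-/- library, at a log2 difference of -1.12 (SE 0.154, adjusted p = 0.0015).

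Promoter sequences are shown first for the precursors that carry a cAMP response element. This 8-base palindrome, TGACGTCA, is bound by CREB and related factors in textbook accounts of the Sst promoter. RefSeq windows of GRCm38.p6, from 250 bases before to 50 after an annotated start, were found for 32 of the 39 genes, in 34 windows. The palindrome stood in 5 of these 34 windows (14.7%), against 588 of 32851 windows of all genes (1.79%). Its 5 genes were Cartpt, Chgb, Scg2, Sst and Ucn. The 30 bases around each are given 5′ to 3′ on the gene's strand, with the palindrome in capitals.
Cartpt: ccggcgggcatTGACGTCAaacggcagcgg
Chgb: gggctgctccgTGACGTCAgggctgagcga
Scg2: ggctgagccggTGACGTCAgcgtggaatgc
Sst: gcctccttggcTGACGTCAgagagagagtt
Ucn: atgttcttcgcTGACGTCAgtcggagctgt
The stretches lie at chr13:99900777-99900806, chr2:132781559-132781588, chr1:79440076-79440105, chr16:23890874-23890903 and chr5:31138921-31138950, on the minus strand except for Chgb. The palindrome ended 104, 64, 60, 40 and 36 bases before the RefSeq start in that order. All but the Ucn stretch also overlap an exon of the GENCODE annotation, which places some starts further upstream. Expression of these genes did not follow 1 direction. Cartpt, Scg2 and Sst were called higher and Chgb lower in EED-/- cerebellum, and Ucn had too few counts for a test.

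A shorter core of the element, CGTCA on either strand, was in 19 of the 34 windows (55.9%), against 20.8% of all windows. The full palindrome always contains this core, so the counts of the palindrome and of the core overlap. For 5 called genes without the palindrome the core lay within the last 150 bases before the start, in sequence free of annotated exons. These 150 bases are shown with the core in capitals, as CGTCA or as its reverse complement TGACG.
Adcyap1: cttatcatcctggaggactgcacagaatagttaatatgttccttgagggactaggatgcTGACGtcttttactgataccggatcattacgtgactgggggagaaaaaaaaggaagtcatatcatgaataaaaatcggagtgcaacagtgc
Cck: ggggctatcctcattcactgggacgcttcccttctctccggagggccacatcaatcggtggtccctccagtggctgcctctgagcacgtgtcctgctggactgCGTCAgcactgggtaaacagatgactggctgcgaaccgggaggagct
Chga: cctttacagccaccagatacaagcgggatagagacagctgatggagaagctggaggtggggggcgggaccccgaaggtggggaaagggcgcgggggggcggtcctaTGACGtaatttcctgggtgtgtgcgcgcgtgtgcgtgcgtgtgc
Scg3: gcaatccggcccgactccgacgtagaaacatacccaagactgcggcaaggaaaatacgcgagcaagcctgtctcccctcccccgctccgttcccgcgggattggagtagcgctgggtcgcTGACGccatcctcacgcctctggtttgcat
Trh: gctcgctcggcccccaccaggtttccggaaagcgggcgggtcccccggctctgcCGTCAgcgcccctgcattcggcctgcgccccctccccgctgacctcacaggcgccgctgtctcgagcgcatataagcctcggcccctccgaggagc
The stretches lie at chr17:93198867-93199016 (plus strand), chr9:121495695-121495844 (minus strand), chr12:102554791-102554940 (plus strand), chr9:75684057-75684206 (minus strand) and chr6:92244651-92244800 (minus strand). Each holds 1 core, and each ends at the base before the start. Scg3 was called lower and the other 4 genes higher. By gene, the core was in 11 of 14 called precursors with a window, in 4 of 9 not called and in 3 of 9 not tested. Among all 27025 genes with a window it was in 6228. The core itself contains a CG pair, so its counts are not independent of the CpG ratios that follow. An observed-to-expected CpG ratio of at least 0.6 was found in windows of 11 of 14 called precursors. It was found for 2 of 9 not called and 2 of 9 untested ones, and for 10366 of all 27025 genes with a window. By window, the share was 35.8% of all. TATAAA on either strand was in 9 of the 34 windows (26.5%), against 13.6% of all. These matches describe letters and show no binding.

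Of the 29 tested precursors 14 were called higher and 3 lower in EED-/- libraries, and 12 were not called. Over all tested genes 11.7% were called higher and 14.1% lower. The median log2 fold change of the tested precursors was 0.60, against -0.03 for all tested genes. The precursors, and the gene lists used below, were chosen with earlier results of these data known. Contrasts with all genes are not independent of that choice. Upper-quartile scaling and library size alone shifted the median of all genes up by 0.116 and 0.1 on the log2 scale. Under these scalings the precursors called were 14 higher with 1 and 2 lower, and of all genes 2828 and 2641 were higher and 1786 and 1865 lower, against 2125 higher and 2544 lower with TMM. In 16 of the 29 every EED-/- library was above every WT library, and in 3 every one was below. The same held for 20.1% and 23.8% of all tested genes. Without WT replicate 3 the precursors called higher numbered 10, and all genes called higher fell from 2125 to 1294. Precursors called lower numbered 1 after removal of any of WT replicate 3, EED-/- replicate 1 and EED-/- replicate 2. All genes called lower numbered 1628, 1320 and 1713 in these refits, in that order. The 29 are not all members. Of them, Trh and Vip reached the filter's cutoff of 0.495 CPM in every EED-/- library but not in every WT library.

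**Figure D1:**
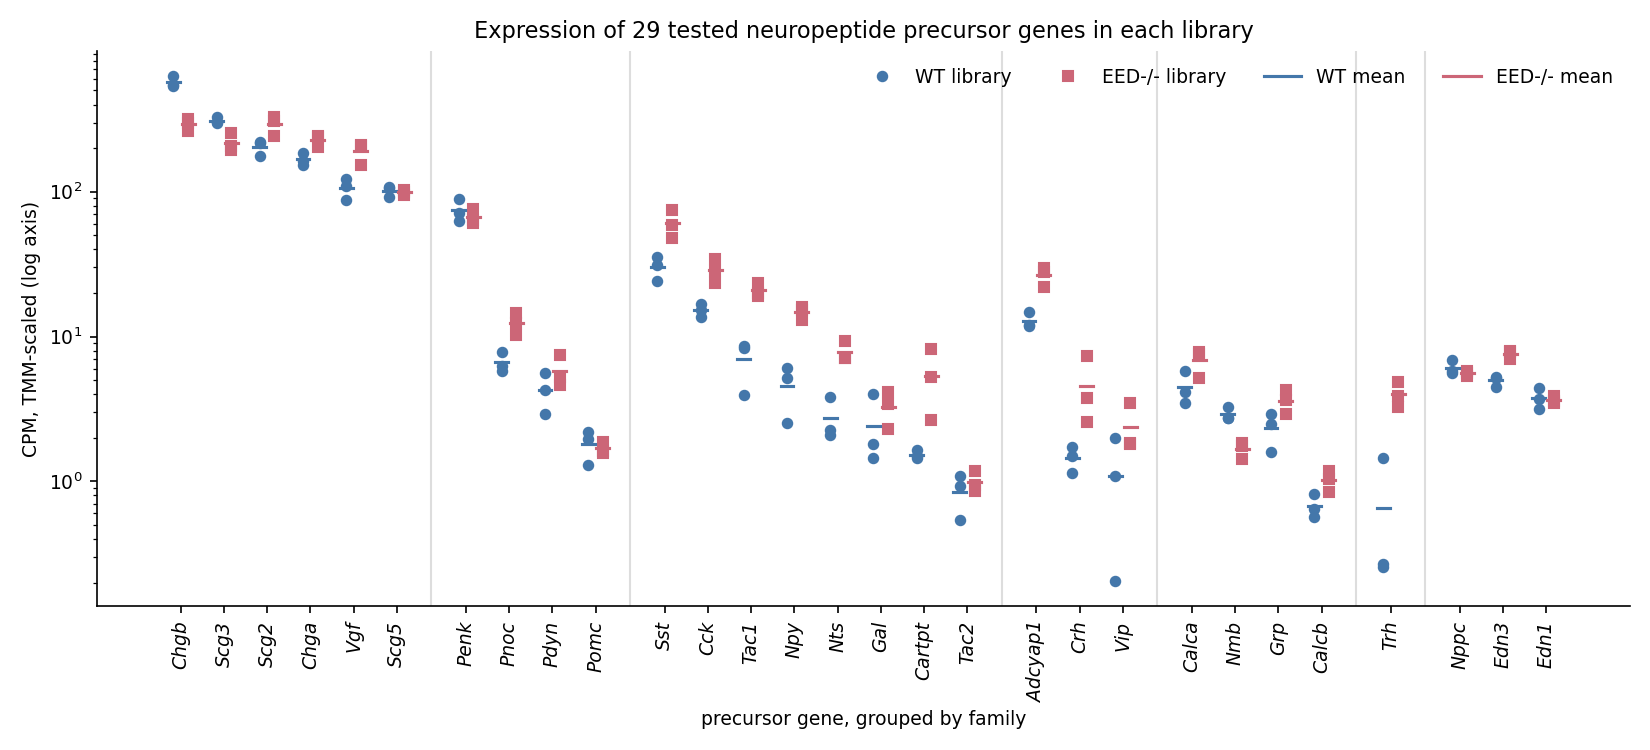
Expression of the 29 tested precursors in each of the 6 libraries, in TMM-scaled CPM on a log axis, grouped by family. Circles are WT libraries, squares EED-/- libraries and short lines the means (n = 3); in Trh, Npy, Tac1, Nts and Cartpt every square lies above every circle, and in Chgb below.

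The granins are acidic proteins that help form dense-core granules and are themselves cut into peptides, and they split in direction. Chgb fell, and it had the highest level per kilobase of exon of the 39 genes in WT libraries. Chgb (chromosome 2, 132781278 to 132795079) was at 630, 547 and 539 CPM in WT and at 298, 264 and 320 CPM in EED-/- libraries. Every EED-/- library was far below the lowest WT library. Means were 572 ± 50.0 and 294 ± 27.8 CPM (SD, n = 3), and the log2 fold change was -0.96 (SE 0.122, adjusted p = 0.00108). Its paralogue Chga (chromosome 12, 102554969 to 102565028), the classical marker of chromaffin granules, moved the other way. Chga was at 185, 152 and 164 CPM in WT and 239, 242 and 203 CPM in EED-/- libraries (log2 fold change 0.45, SE 0.123, adjusted p = 0.0287), and the groups did not overlap, but the lowest EED-/- library was only slightly above the highest WT library. Per kilobase of exon, Chgb stood at 3.42, 3.62 and 3.30 times the level of Chga in WT libraries and at 1.25, 1.1 and 1.58 times in EED-/- libraries. This ratio, chosen after the values were seen, averaged 3.45 ± 0.159 in WT and 1.31 ± 0.246 in EED-/- libraries.

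Scg2 and Vgf were higher and Scg3 lower. Scg2, the precursor of secretoneurin, was at 176, 220 and 217 CPM in WT and 309, 243 and 326 CPM in EED-/- libraries (log2 fold change 0.52, SE 0.148, adjusted p = 0.0328). Vgf (chromosome 5, 137026392 to 137033351), a neurotrophin-inducible gene that gives rise to several peptides, was at 109, 87.2 and 122 CPM in WT and 210, 206 and 153 CPM in EED-/- libraries. All EED-/- libraries were above all WT libraries, and EED-/- replicate 3 was the lowest of them. The log2 fold change of Vgf was 0.84 (SE 0.168, adjusted p = 0.00825), and its call held in each alternative. Scg3, which binds Chga and cholesterol-rich granule membrane, was at 300, 326 and 304 CPM in WT and 194, 208 and 254 CPM in EED-/- libraries. Its groups did not overlap, and its log2 fold change was -0.50 (SE 0.127, adjusted p = 0.02). Scg5, the chaperone of the convertase encoded by Pcsk2, was not called, at 92.0, 106 and 108 CPM in WT and 103, 94.5 and 99.0 CPM in EED-/- libraries (adjusted p = 0.812). Its groups overlapped. The calls of Chga, Scg2 and Scg3 ended when certain libraries were left out. Without EED-/- replicate 1 their adjusted p were 0.122, 0.124 and 0.105, and without WT replicate 3 they were 0.111, 0.0805 and 0.065. The calls of Chga and Scg3 also ended without EED-/- replicate 2 (adjusted p = 0.0991 and 0.0765), that of Chga without WT replicate 2 (adjusted p = 0.0711) and that of Scg2 without EED-/- replicate 3 (adjusted p = 0.0709). Upper-quartile scaling ended the call of Scg3 (adjusted p = 0.0585). The summed level of the 6 granins was 1438 to 1492 CPM in WT and 1258 to 1355 CPM in EED-/- libraries. That of the other 33 precursors was 182 to 201 CPM in WT and 294 to 305 CPM in EED-/- libraries.

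These are levels in whole tissue, in which fewer cells of a type and less RNA per cell cannot be told apart. Beside the granins, markers of granule neurons, the most numerous neurons of the cerebellum, were lower in 12 of 12 cases. The summed level of these 12 was 5212 to 6521 CPM in WT and 644 to 894 CPM in EED-/- libraries. Of the 8 Purkinje cell markers, edgeR called 0 (2 had an unadjusted p under 0.05) and the authors' deposited table called 2. Their summed level was 3014 to 3658 CPM in WT and 3153 to 4594 CPM in EED-/- libraries. The part of such shifts in the granin values was not tested.

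**Figure D2:**
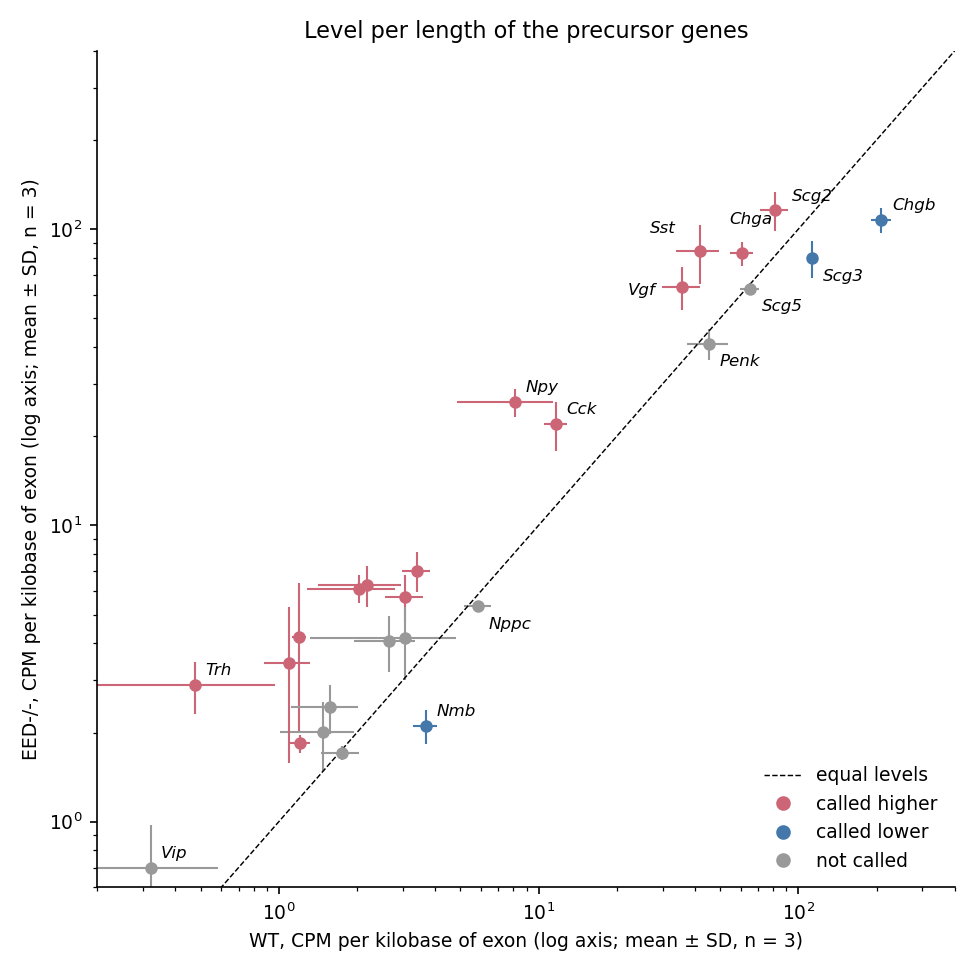
Mean level per kilobase of exon in WT (horizontal axis) and EED-/- libraries (vertical axis), both log axes, with SD bars (n = 3), for precursors whose mean reached 2 CPM in either genotype. The dashed line marks equal levels; Chgb lies below it at 209 and 107 CPM per kilobase, and Npy above it at 8.09 and 26.0, while unnamed points are genes under 5 CPM per kilobase in WT.

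Levels per kilobase of exon allow the genes to be ordered. In WT libraries the order from the top was Chgb (209 ± 18.3 CPM per kilobase), Scg3 (113 ± 4.96), Scg2 (81.2 ± 9.80), Scg5 (64.9 ± 5.44), Chga (60.7 ± 6.05), Penk (45.4 ± 8.25), Sst (41.8 ± 7.86) and Vgf (35.7 ± 5.95). Scg5 and Chga did not differ beyond their spread, nor did Penk, Sst and Vgf. In EED-/- libraries the order was Scg2 (116 ± 17.5 CPM per kilobase), Chgb (107 ± 10.1), Sst (84.1 ± 18.9), Chga (82.8 ± 7.80), Scg3 (79.8 ± 11.3), Vgf (63.9 ± 10.7), Scg5 (63.0 ± 2.76) and Penk (41.1 ± 4.92). There each gene from Scg2 down to Scg5 overlapped its neighbour within 1 SD, and Scg5 and Penk did not. Cck and Npy were the next genes in both genotypes, at 11.7 and 8.09 CPM per kilobase in WT and 22.0 and 26.0 in EED-/- libraries.

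Among the 4 opioid precursors Pnoc alone was called, and it rose, against 11.7% of all tested genes called higher. Pnoc (chromosome 14, 65400673 to 65425472), the precursor of nociceptin, was at 5.80, 6.22 and 7.86 CPM in WT and 12.4, 14.6 and 10.2 CPM in EED-/- libraries. The groups did not overlap, with means of 6.63 ± 1.09 and 12.4 ± 2.22 CPM, and the log2 fold change was 0.90 (SE 0.19, adjusted p = 0.00993). Penk, the enkephalin precursor and the highest of the 4 opioid genes per kilobase of exon, was at 89.0, 62.6 and 71.1 CPM in WT and 61.1, 64.1 and 76.3 CPM in EED-/- libraries. Its groups overlapped (log2 fold change -0.14, SE 0.154, adjusted p = 0.534). Pdyn, the dynorphin precursor, was at 2.90 to 5.59 CPM in WT and 4.61 to 7.48 CPM in EED-/- libraries (adjusted p = 0.283). Pomc, which gives rise to beta-endorphin and melanocortins, was at 1.29 to 2.21 and 1.56 to 1.88 CPM (adjusted p = 0.803). A p above the threshold does not show that these levels were equal.

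Among 8 peptides of interneurons and projection neurons 6 were called higher and 0 lower, against 11.7% and 14.1% of all tested genes. Npy (chromosome 6, 49822710 to 49829507), neuropeptide Y, was at 2.51, 6.06 and 5.17 CPM in WT and 16.0, 15.2 and 13.0 CPM in EED-/- libraries. Every EED-/- library held more than any WT library, and the log2 fold change was 1.69 (SE 0.285, adjusted p = 0.00397), or 3.22-fold. Sst (chromosome 16, 23889573 to 23890958), somatostatin, was the highest of the 8 per kilobase of exon. It was at 24.1, 31.0 and 35.3 CPM in WT and 59.1, 75.0 and 47.9 CPM in EED-/- libraries, and the log2 fold change was 1.01 (SE 0.195, adjusted p = 0.00678). Cck (chromosome 9, 121489824 to 121495694), cholecystokinin, was at 16.8, 13.7 and 15.3 CPM in WT and 34.1, 28.5 and 23.4 CPM in EED-/- libraries (log2 fold change 0.91, SE 0.161, adjusted p = 0.0047). For both genes the groups were apart, with EED-/- replicate 3 the lowest of its group.

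Tac1 (chromosome 6, 7554879 to 7565834), which encodes substance P and neurokinin A, was at 3.95, 8.53 and 8.37 CPM in WT and 23.3, 19.1 and 20.0 CPM in EED-/- libraries. The WT libraries were uneven, with replicate 1 low, but all lay far below the EED-/- libraries (log2 fold change 1.58, SE 0.269, adjusted p = 0.00419). Nts (chromosome 10, 102481756 to 102490486), neurotensin, was at 2.10, 2.25 and 3.82 CPM in WT and 9.28, 7.15 and 7.15 CPM in EED-/- libraries (log2 fold change 1.52, SE 0.258, adjusted p = 0.00391). Cartpt (chromosome 13, 99898489 to 99901091) encodes the CART peptides and was at 1.64, 1.5 and 1.45 CPM in WT and 8.19, 2.63 and 5.29 CPM in EED-/- libraries. Its WT libraries were close together while its EED-/- libraries spanned a wide range, at 1.53 ± 0.100 and 5.37 ± 2.78 CPM (log2 fold change 1.81, SE 0.388, adjusted p = 0.011). Calls of these 6 genes held under each of the 14 alternatives. Gal, galanin, was at 4.0, 1.45 and 1.81 CPM in WT and 3.41, 2.31 and 4.11 CPM in EED-/- libraries. It was not called (adjusted p = 0.463), and without WT replicate 1, its highest WT library, the log2 fold change was 1.05 (adjusted p = 0.0452). Tac2, the neurokinin B precursor, was at 0.536 to 1.09 and 0.852 to 1.17 CPM (adjusted p = 0.682). Sst stood at 0.613, 1.12 and 1.13 times the level of Penk per kilobase in WT libraries and at 2.19, 2.65 and 1.42 times in EED-/- libraries, a ratio chosen after the values were seen.

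Markers of other neurons moved beside these peptides. For comparison, 11.7% of all tested genes were called higher and 14.1% lower. Of 7 markers of cerebellar nuclei neurons 5 were higher and 0 lower, with a summed level of 1160 to 1298 CPM in WT and 1850 to 2218 CPM in EED-/- libraries. Most of that sum came from the neurofilament genes Nefh and Nefm, and WT replicate 1 stood apart in other markers of the list. Lhx9, not called, was at 1.13, 13.2 and 11.2 CPM in WT and 30.6, 27.2 and 26.9 CPM in EED-/- libraries. Slc17a6, the glutamate transporter VGLUT2, was at 58.1, 157 and 119 CPM in WT and 261, 198 and 269 CPM in EED-/- libraries. WT replicate 1 was also the lowest library for Scg2, Scg5, Pnoc, Npy, Sst, Tac1, Nts, Vip, Grp and, by little, Trh. Of the other precursors called higher, Chga, Vgf and Cck were lowest in WT replicate 2. Cartpt, Adcyap1, Crh and Edn3 were lowest in WT replicate 3. Without WT replicate 1 the log2 fold changes of Npy and Tac1 were 1.44 (adjusted p = 0.00119) and 1.35 (adjusted p = 0.000954). Of 11 tested markers of brainstem, midbrain and monoamine neurons 4 were higher and 0 lower, at 80.8 to 134 and 190 to 209 CPM, and none of the 12 listed was at 0. Isl1, among these 4, met the filter's cutoff in every EED-/- library but in only 1 WT library, so this count is partly set by the filter. Several of these peptides are known in molecular layer and Golgi interneurons of the cerebellum. Of 11 markers of these cells 2 were higher, near the share of all genes, and 4 lower. Their summed level was 1006 to 1061 CPM in WT and 938 to 1160 CPM in EED-/- libraries. How far cells of these types set the peptide values was not tested.

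**Figure D3:**
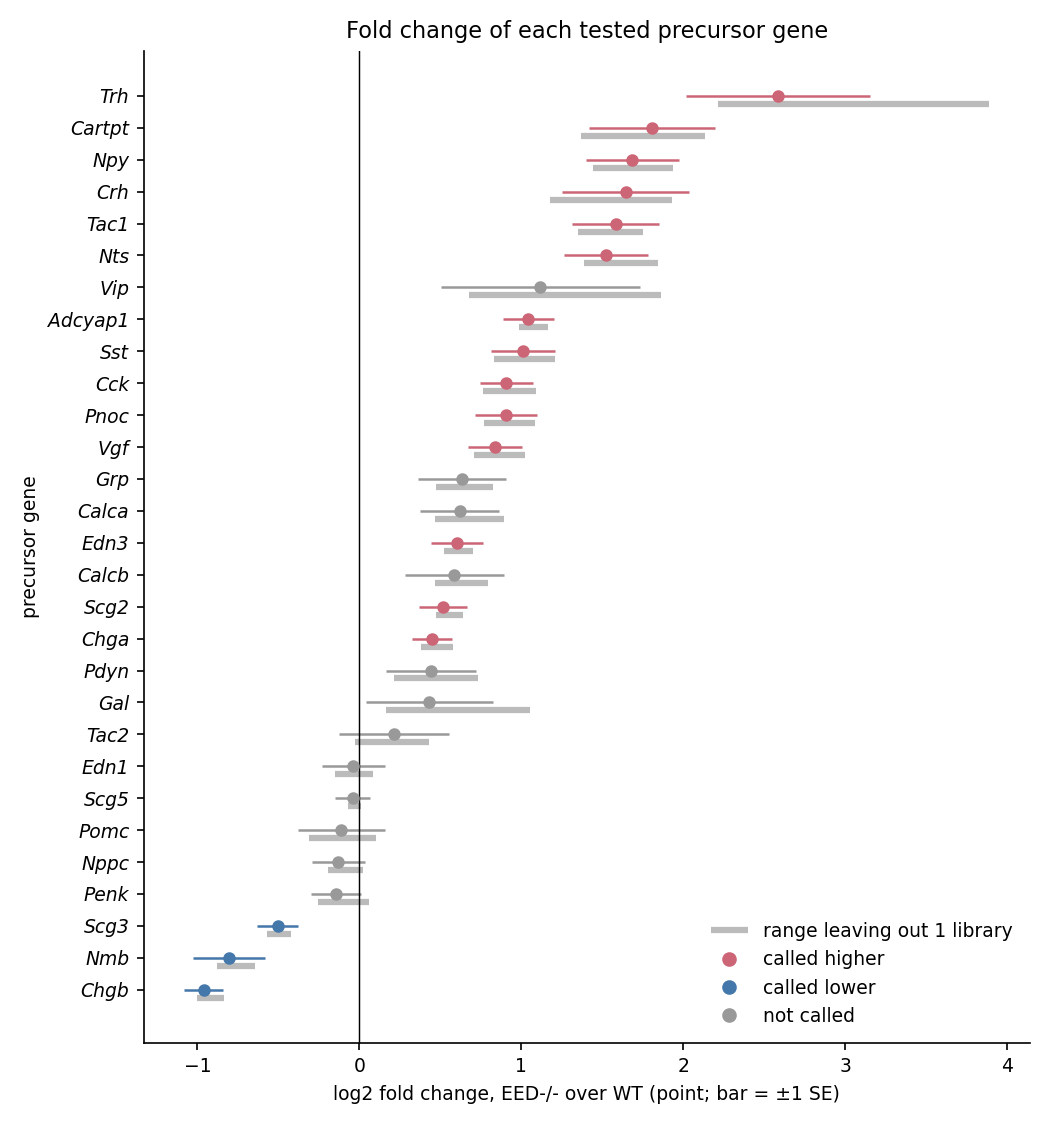
Log2 fold change of EED-/- over WT for the 29 tested precursors, as points with bars of 1 SE (edgeR), red for called higher, blue for called lower and grey for not called. Thick grey lines give the range of the estimate when each library is left out in turn; it stays on 1 side of 0 for all 17 called genes, from Chgb at -0.96 to Trh at 2.59.

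In the secretin and corticotropin-releasing families, Adcyap1 and Crh rose. Adcyap1 (chromosome 17, 93199017 to 93206537), the precursor of PACAP, a peptide known to act on granule cell progenitors, was at 12.1, 14.7 and 11.9 CPM in WT and 27.8, 22.0 and 29.9 CPM in EED-/- libraries. The groups were well apart, and the log2 fold change was 1.04 (SE 0.157, adjusted p = 0.00232). Crh (chromosome 3, 19693401 to 19695396), corticotropin-releasing hormone, was at 1.49, 1.72 and 1.14 CPM in WT and 2.56, 3.76 and 7.29 CPM in EED-/- libraries. EED-/- replicate 3 was far above the other EED-/- libraries, and the spread was wide (log2 fold change 1.64, SE 0.394, adjusted p = 0.0171). The call ended without WT replicate 3 (adjusted p = 0.0705). Vip, vasoactive intestinal peptide, had 4, 37 and 21 counts in WT and 38, 39 and 71 counts in EED-/- libraries, with overlapping CPM and no call (log2 fold change 1.12, SE 0.614, adjusted p = 0.222). Its value moved with single libraries, to 0.68 without WT replicate 1 (adjusted p = 0.272) and 1.86 without WT replicate 2 (adjusted p = 0.0632). Ucn, urocortin, had 0 counts in the 3 WT libraries and 10 in the EED-/- libraries, 8 of them in replicate 3. Set against an assumed floor of 3 counts over the WT group, these 10 counts gave a CPM ratio of 3.05. That ratio takes the 10 counts without error, is not a lower bound and was not tested.

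In the calcitonin and bombesin families 1 of 4 genes was called, and it fell, against 14.1% of all tested genes called lower. The other 3 were not called and had log2 fold changes above 0 (Calca 0.62, Calcb 0.59, Grp 0.63). For Calcb and Grp every EED-/- library was above every WT library, as was the case for 20.1% of all tested genes. Nmb (chromosome 7, 80902227 to 80905076), neuromedin B, was at 3.28, 2.74 and 2.74 CPM in WT and 1.75, 1.83 and 1.42 CPM in EED-/- libraries. The groups did not overlap, at means of 2.92 ± 0.315 and 1.67 ± 0.220 CPM (log2 fold change -0.80, SE 0.221, adjusted p = 0.0284). This call ended under 10 of the 14 alternatives, among them each removal of a library except WT replicate 2, with adjusted p of 0.0647 to 0.103, and DESeq2, with an adjusted p of 0.106. The authors' deposited table also had it above 0.05 (adjusted p = 0.104). Calca, the precursor of calcitonin and CGRP, was at 3.49 to 5.75 CPM in WT and 5.17 to 7.83 CPM in EED-/- libraries (adjusted p = 0.0973). Its paralogue Calcb was at 0.568 to 0.821 and 0.847 to 1.17 CPM (adjusted p = 0.197). Estimated counts of this pair were not whole while their sums were, so reads were divided between them. Summed, they had an adjusted p of 0.0869, and without WT replicate 1 Calca alone was called (adjusted p = 0.0311). Grp, gastrin-releasing peptide, was at 1.59 to 2.89 and 2.92 to 4.26 CPM (adjusted p = 0.121).

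Of the 8 hypothalamic and neurohypophysial peptides, 7 had 0 to 8 counts per library and were not tested. Trh (chromosome 6, 92242061 to 92244650), thyrotropin-releasing hormone, was the exception, with 5, 5 and 28 counts in WT and 69, 82 and 99 counts in EED-/- libraries. That is 0.257, 0.268 and 1.45 CPM against 3.27, 3.86 and 4.85 CPM, with WT replicate 3 apart from the other WT libraries and still below every EED-/- library. The fitted rise was 6.00-fold (log2 fold change 2.59, SE 0.568, adjusted p = 0.0132). It ranged from 2.22 to 3.89 on the log2 scale over the alternatives, with the highest value when WT replicate 3 was left out, and was called in each. Trh met the filter's cutoff in every EED-/- library but in only 1 WT library, so its entry into the test was partly set by the libraries where it was high. Agouti-related peptide, Agrp, had 9 counts over the WT and 21 over the EED-/- libraries, a CPM ratio of 2.14 with a 95% counting interval of 0.937 to 5.30. Hcrt (3 and 8 counts), Pmch (4 and 7), Avp (1 and 3), Oxt (11 and 7), Nmu (5 and 3) and Nms (2 and 2) were near the floor in both genotypes. Differences in these were not detectable at this depth. The intervals cover counting error only. Markers of hypothalamic neurons were near 0 as well, with 1 of 8 tested. That gene, Otp, rose from 3.37 ± 0.667 to 7.98 ± 1.65 CPM. Sim1 had 2 counts in WT and 22 in EED-/- libraries, and Six6 and Rax had 0 counts in WT and 16 and 3 in EED-/- libraries. The summed level of the 8 was 3.17 to 4.13 CPM in WT and 6.95 to 10.6 CPM in EED-/- libraries, and its part in the Trh values was not tested.

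Natriuretic peptides and endothelins, which act on blood vessels and also on glia, gave 1 rise among 3 tested genes. The share called higher was 11.7% over all tested genes. Edn3 (chromosome 2, 174760619 to 174784042), endothelin 3, was at 5.28, 5.20 and 4.44 CPM in WT and 7.95, 6.96 and 7.78 CPM in EED-/- libraries (log2 fold change 0.60, SE 0.16, adjusted p = 0.0247). Its groups did not overlap, but the call ended without WT replicate 3 (adjusted p = 0.1) or EED-/- replicate 1 (adjusted p = 0.103). Edn1 was at 3.15 to 4.40 and 3.48 to 3.87 CPM (adjusted p = 0.908). Nppc, C-type natriuretic peptide, was at 5.58 to 6.93 and 5.35 to 5.74 CPM (adjusted p = 0.599). Nppa, the atrial peptide, had 11 counts over the WT and 29 over the EED-/- libraries, a ratio of 2.41 with a counting interval of 1.17 to 5.35. That interval leaves out the spread among libraries, and the groups overlapped, at 0.362 CPM in WT replicate 3 and 0.343 CPM in EED-/- replicate 3. Nppb had 8 and 3 counts. Neither Nppa nor Nppb was tested. In the same libraries 10 of 10 tested markers of skeletal and cardiac muscle were higher (4.16 to 5.15 CPM summed in WT, 81.3 to 124 CPM in EED-/- libraries), while the atrial myosin light chain Myl7 had 0 counts in all 6. Of these 10 markers 8 met the filter's cutoff in every EED-/- library but not in every WT library, so their count is partly set by the filter. Meningeal fibroblast markers were higher in 8 of 8 cases and those of endothelium and mural cells in 3 of 8. Their part in the Edn3 and Nppa values was not tested.

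**Figure D4:**
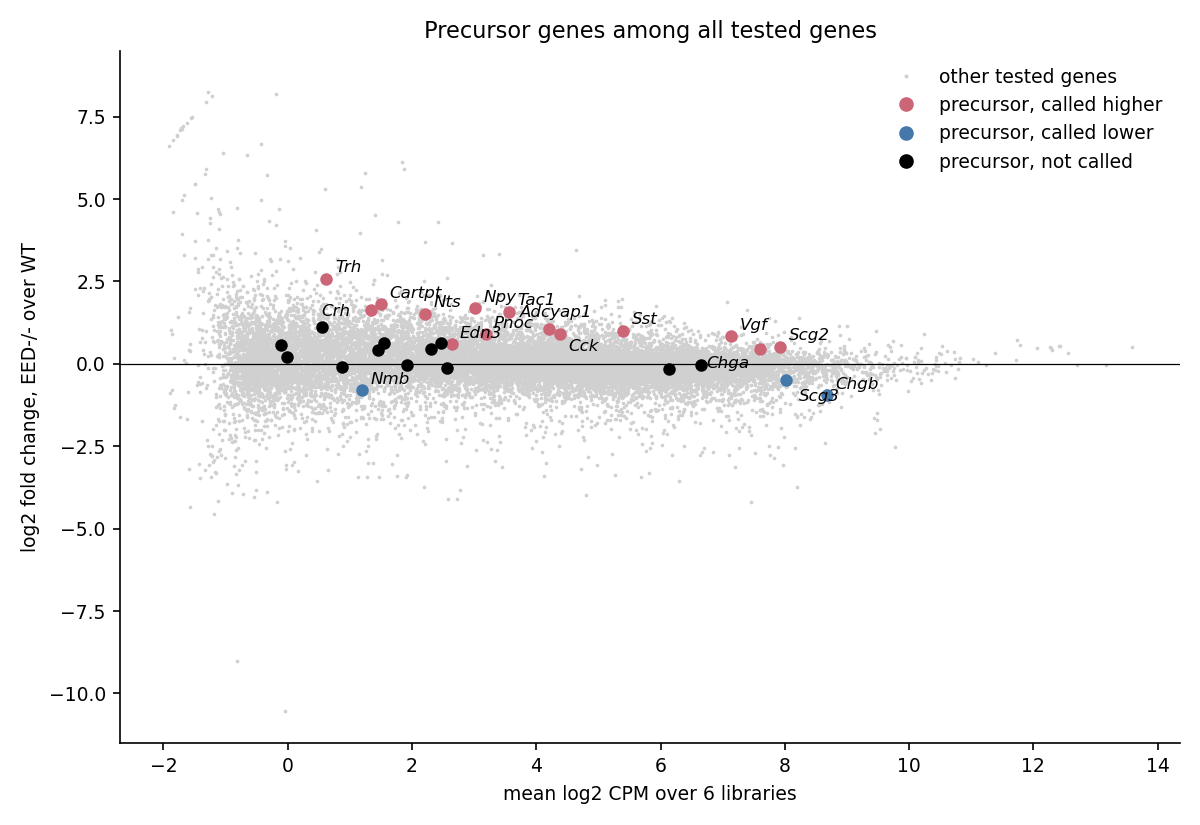
Log2 fold change (EED-/- over WT, vertical axis) against mean log2 CPM over the 6 libraries (horizontal axis) for 18091 tested genes, shown as grey points. The 29 tested precursors are coloured by call, and the named ones are the 14 called higher and the 3 called lower, spread from the low-count Trh to the abundant Chgb.

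At an adjusted p under 0.05 the authors' deposited table called 14 precursors higher and 2 lower, and all 16 were also called here in that direction.

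Receptors for these peptides were called in both directions. Of 51 listed receptor and receptor partner genes 45 were tested, 23 were higher and 5 lower, and the median log2 fold change was 0.93. Over all tested genes 11.7% were called higher and 14.1% lower, so the 5 lower are not above the share of all genes. Of the 45, Avpr1a, Cckar, Mc3r, Oprm1 and Sstr5 met the filter's cutoff in every EED-/- library but not in every WT library, and 2 of these, Avpr1a and Oprm1, are among the 23. The higher genes numbered 14 without WT replicate 3, 13 without EED-/- replicate 1 and 15 without EED-/- replicate 2. The lower genes numbered 5 in each. All genes called higher numbered 1294, 1180 and 1323 in the same refits, against 2125 with all libraries. Crhr1 (chromosome 11, 104132855 to 104175523), the main receptor of corticotropin-releasing hormone, had the smallest adjusted p of the list and fell from 62.9, 46.5 and 51.4 CPM in WT to 17.2, 14.7 and 16.6 CPM in EED-/- libraries (log2 fold change -1.73, SE 0.144, adjusted p = 0.000146). Its ligand gene Crh was called higher in the same libraries. Vipr1, a receptor of VIP and PACAP, fell from 5.15 ± 0.858 to 1.72 ± 0.131 CPM (log2 fold change -1.58, adjusted p = 0.00129). Adcyap1r1, the PACAP-preferring receptor, was not called, at 247 to 305 CPM in WT and 312 to 336 CPM in EED-/- libraries (adjusted p = 0.238). Ramp3, Galr1 and Sstr3 were the other genes called lower. The oxytocin receptor Oxtr rose from 1.90, 1.88 and 2.58 CPM to 6.68, 6.73 and 5.53 CPM (log2 fold change 1.57, SE 0.206, adjusted p = 0.00124), beside an Oxt transcript near 0. The somatostatin receptor Sstr1 rose from 4.72, 5.53 and 5.84 CPM to 12.5, 13.4 and 10.7 CPM (log2 fold change 1.18, SE 0.161, adjusted p = 0.00149). Both had groups that did not overlap.

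Further receptors named after their values were seen pair with precursors described above. Npy1r, a receptor of neuropeptide Y, rose from 4.8 ± 0.894 to 11.3 ± 0.695 CPM. The substance P receptor Tacr1 rose from 4.8 ± 1.22 to 10.4 ± 2.44 CPM and the neurokinin B receptor Tacr3 from 3.21 ± 0.923 to 8.58 ± 1.49 CPM. The dynorphin receptor Oprk1 rose from 2.66 ± 1.06 to 9.44 ± 1.82 CPM, while Pdyn itself was not called. The cholecystokinin receptor Cckbr rose from 4.43 ± 0.412 to 8.36 ± 0.550 CPM. The neurotensin receptor Ntsr2, known from astrocytes, rose from 68.6 ± 6.57 to 102 ± 11.9 CPM, a call that ended without EED-/- replicate 1 or 2. The somatostatin receptor Sstr3 fell from 16.1 ± 4.51 to 7.70 ± 0.598 CPM, opposite to Sstr1. Not every receptor of a precursor called higher was itself called. Oprl1, Trhr, Sstr2, Npy5r and Cckar were not (adjusted p = 0.106, 0.126, 0.611, 0.0792 and 0.12), while Npy2r, Sstr4, Ntsr1 and Trhr2 were called higher. Beside the receptors stand the fall of the 12 granule neuron markers, the higher markers of cerebellar nuclei neurons, and microglia markers, of which 6 of 8 were higher and 0 lower, at 129 to 141 CPM summed in WT and 235 to 253 CPM in EED-/- libraries. Of 8 markers of Bergmann glia and astrocytes 2 were higher and 3 lower, against 11.7% and 14.1% of all tested genes. The part of these cell types in the receptor values was not tested.

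**Figure D5:**
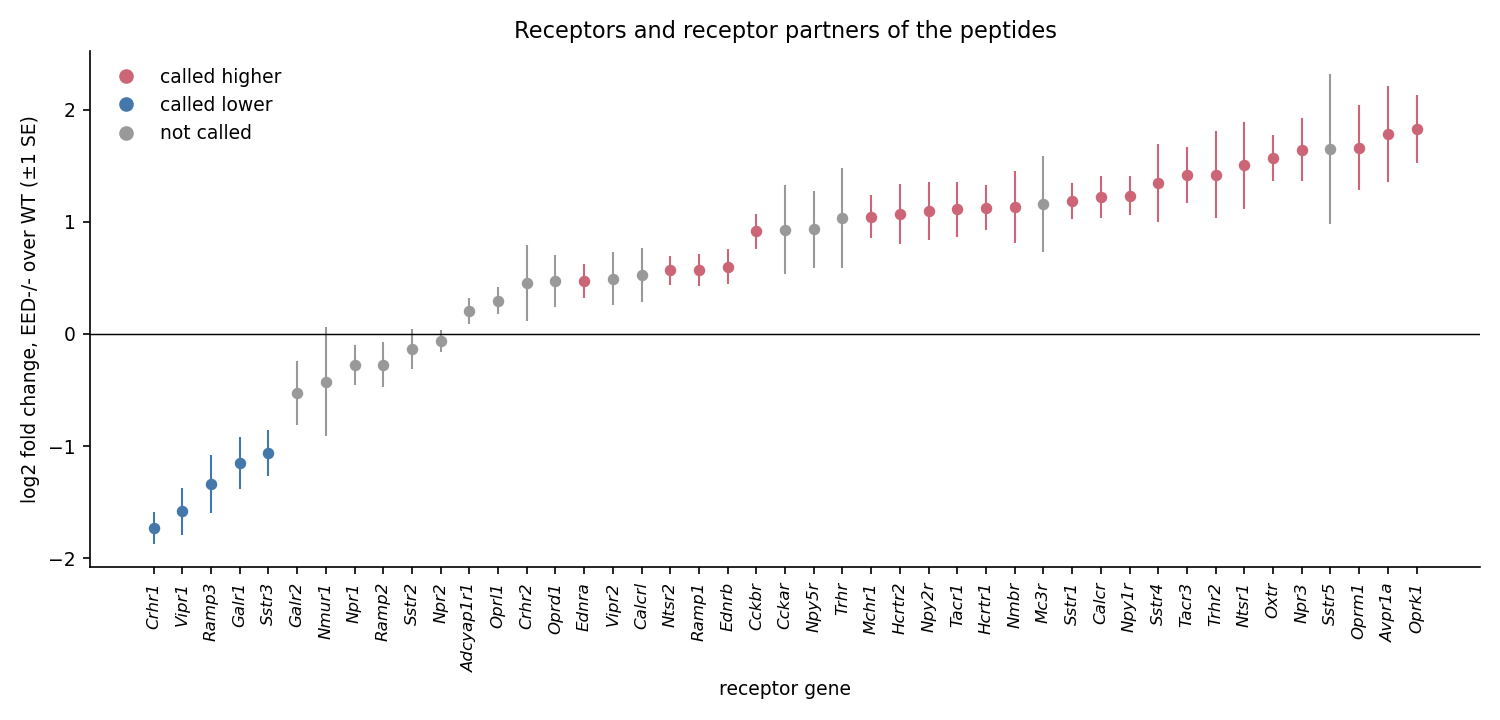
Log2 fold change of EED-/- over WT with bars of 1 SE for the 45 tested receptor and receptor partner genes, in order of the estimate. Red points were called higher (23), blue points lower (5) and grey points were not called; Crhr1 is at the low end and Oprk1 at the high end.

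Of 15 genes that cut and finish precursors 5 were called higher and 2 lower, against 11.7% higher and 14.1% lower over all tested genes. The 2 lower are near the share of all genes. Pam, the enzyme that amidates the end of many peptides, rose from 48.0, 50.8 and 58.3 CPM in WT to 99.6, 86.8 and 107 CPM in EED-/- libraries (log2 fold change 0.90, SE 0.127, adjusted p = 0.00171). Every EED-/- library exceeded every WT library. The convertase Pcsk1 rose from 12.4 ± 1.04 to 21.3 ± 4.17 CPM (adjusted p = 0.00999), while Pcsk2, the other convertase of neurons, was at 107 to 115 and 116 to 149 CPM and was not called (adjusted p = 0.162). Furin and Pcsk7, convertases of the constitutive pathway, both fell, Furin from 69.6 ± 12.4 to 42.7 ± 3.93 CPM and Pcsk7 from 32.8 ± 1.99 to 22.3 ± 1.76 CPM. Higher genes of this list numbered 2 when WT replicate 3, EED-/- replicate 1 or replicate 2 was removed, and 3 without EED-/- replicate 3. Pam and Pcsk1 kept their calls in each alternative. The same markers of granule neurons, cerebellar nuclei neurons and microglia moved beside these enzymes, and their part in the values was not tested.

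Genes of dense-core vesicle release were 4 higher and 5 lower of 20, against 11.7% higher and 14.1% lower over all tested genes. They held the largest fall among the 5 pathway lists. Cadps2 (chromosome 6, 23262773 to 23839421), a priming factor for these vesicles, fell from 394, 379 and 349 CPM in WT to 65.4, 50.8 and 74.2 CPM in EED-/- libraries (log2 fold change -2.56, SE 0.156, adjusted p = 4.43e-05). All EED-/- libraries lay far below the WT libraries. The vesicle protein Syt9, a calcium sensor, fell from 86.1 ± 14.2 to 24.7 ± 3.53 CPM (adjusted p = 0.000211). Baiap3, which acts in vesicle trafficking, rose from 36.9 ± 8.44 to 81.8 ± 11.3 CPM and Resp18, a protein of endocrine secretory granules, from 42.5 ± 6.60 to 79.8 ± 8.84 CPM. The lower genes numbered 3 without WT replicate 1, WT replicate 3, EED-/- replicate 1 or EED-/- replicate 3, and the higher genes 2 when WT replicate 3 or EED-/- replicate 1 or 3 was removed. As with the granins, the fall of granule neuron markers stands beside these values, and its part in them was not tested.

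A list of 15 peptidases and related proteins, several of which end peptide signals at the cell surface, gave 2 genes called higher and 2 lower, near the shares of all genes. One of those called lower, Dpp6, is not an active peptidase. Neprilysin, Mme, rose from 3.80 ± 1.83 to 10.3 ± 0.302 CPM (adjusted p = 0.0172). Trhde, which degrades thyrotropin-releasing hormone, fell from 27.1 ± 3.02 to 16.6 ± 3.31 CPM (adjusted p = 0.0165), beside the rise of Trh. Anpep rose from 5.83 ± 0.442 to 9.04 ± 2.15 CPM and Dpp6, a partner of potassium channels, fell from 353 ± 49.3 to 261 ± 14.9 CPM. Each of these 4 calls ended in some alternative. Without EED-/- replicate 1 none of the 15 was called, and without EED-/- replicate 2 the higher genes numbered 0. Among 32 other peptide precursors 11 were tested. Spx, spexin, rose from 2.62 ± 0.599 to 4.47 ± 0.485 CPM (adjusted p = 0.0335) and Apln, apelin, from 33.0 ± 3.83 to 44.1 ± 3.88 CPM (adjusted p = 0.0395). Ghrl, ghrelin, fell from 2.13 ± 0.295 to 0.911 ± 0.230 CPM (adjusted p = 0.0144). None of these 3 was called without EED-/- replicate 1.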

How the data were processed

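Polyadenylated RNA of mouse cerebellum was measured in 3 WT and 3 EED-/- libraries, grouped by genotype label and title. The authors deposited expected counts per gene, of which 22.5 to 23.6% per library were not whole. The authors' table of log2 fold changes and p-values was used for gene symbols and 1 comparison, and its adjusted p-values are deposited p-value columns of DESeq2 form, per the file headers. Trimmomatic 0.36, Salmon 1.1.0 and DESeq2 1.26.0 are named in the submitters' processing notes without steps, and whether strand was used is not stated there. Salmon divides reads between similar genes, which touches Calca with Calcb and Avp with Oxt.

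Counts were rounded, filtered with filterByExpr, scaled with TMM and tested with edgeR 4.0.16 (quasi-likelihood, robust, genotype only, two-sided) in R 4.3.3, after a check on simulated data. The threshold was an adjusted p of 0.05. Counts of replicate libraries within a genotype gave a chi-square of 9.00 to 59.7 per degree of freedom, above sampling noise, and no libraries were merged. Alternatives used limma 3.58.1 and DESeq2 1.42.0. Exon lengths and positions came from GENCODE for GRCm38, which matched 18076 of 18091 tested genes (99.9%) and all 39 members. Promoters came from RefSeq. Members called, or at a mean of 10 CPM in a genotype, have values in every library. Of each of 5 pathway lists (133 genes), up to 4 called genes with the smallest adjusted p are named by rule, while the choice of further list genes was made with values in view. The members and lists were chosen with earlier results of these data known. At 3 against 3 libraries the smallest exact permutation p is 0.1, so no test of a single value across libraries was run.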

Additional observations from a re-analysis of the deposited data

How the results depend on the processing

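Tested precursors were refitted under 14 alternatives, or 13 for Tac2 and Calcb, which the stricter filter removed (RLE, upper-quartile and library-size scaling, no filter and a stricter filter, DESeq2, limma-voom, a replicate block and 6 removals of 1 library). Of 17 called precursors 11 kept their call in all 14, and 2 of the 12 not called, Gal and Calca, gained one without WT replicate 1. None of the 17 changed sign, whereas 6 uncalled ones did. With 1 library left out the log2 fold change ran from -0.072 to 0.012 for Scg5, -0.257 to 0.058 for Penk, -0.309 to 0.101 for Pomc, -0.027 to 0.428 for Tac2, -0.194 to 0.022 for Nppc and -0.152 to 0.087 for Edn1. Upper-quartile factors gave 0.074 for Scg5, 0.0029 for Pomc and 0.079 for Edn1, and library size alone 0.057 for Scg5 and 0.062 for Edn1. Precursors called higher were 14 under each scaling, filter and tool, 8 at a change of at least 2-fold and 10 to 16 when 1 library was left out. Those called lower were 1 with upper-quartile factors, 2 with library size alone, no filter or DESeq2, 0 at 2-fold or more, and 1 to 3 when 1 library was left out. At 2-fold or more all genes gave 1044 higher and 832 lower, and leaving out 1 library gave 1180 to 2141 and 1320 to 2460.

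Receptors called higher were 13 to 23 when 1 library was left out. Processing enzymes were 2 to 5 higher and 1 to 2 lower without 1 library, and 0 and 0 at 2-fold. Release genes were 2 to 3 higher and 3 to 5 lower without 1 library, 2 and 3 at 2-fold, 2 higher with no filter, and 3 lower with upper-quartile factors or library size alone. Peptidases were 0 to 2 higher and 0 to 2 lower without 1 library, 1 and 0 at 2-fold, 1 higher with limma-voom, and 1 lower with RLE, upper-quartile factors, library size alone or the stricter filter. Other precursors were 0 to 2 higher and 0 to 1 lower without 1 library, and 0 higher at 2-fold. The cause was not tested, beyond fewer libraries or a stricter threshold where these define the alternative.

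Replicate numbers did not pair the libraries: deviations of same-numbered WT and EED-/- libraries correlated at 0.028, -0.233 and -0.001. With a replicate block 11 precursors were higher and 1 lower, with no call for Chga, Scg2, Scg3, Edn3 and Nmb, and of all genes 1505 and 1706. In that fit the lists gave 2 processing enzymes higher, 3 release genes lower, 1 peptidase higher and 1 lower, and 0 other precursors higher. Depth limits the 10 untested precursors.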
